A study of Mus musculus with 7 samples.

Results

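Neutrophil transcripts of lung tissue were examined in mice lacking the secretoglobin Scgb3a2, a small protein secreted mainly by airway club cells. The 10 genes encode calprotectin (S100a8 and S100a9), receptors (Csf3r and Trem1), granule proteases (Mmp8 and Mmp9), granule antimicrobial proteins (Ltf, Ngp and Camp) and the itaconate-making enzyme Acod1. They were taken by symbol from the 28828 rows of the count table by a rule that names their known roles, leaves out chemokine receptors and uses no measured value, although earlier results of these data were known when it was written. The 3 knockout libraries (KO3, KO4 and KO5) come from Scgb3a2 knockout mice, and the 4 wild type libraries (WT2, WT3, WT4 and WT6) from mice with the gene intact. All 7 libraries come from lung of the C57BL/6 strain, and the library names join the genotype to the number in each title. The labels give no age, sex, treatment, litter or allele structure, and do not say whether each library is a separate mouse, so the spread behind each p-value is that among libraries, which may be technical.

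Neutrophils are short-lived phagocytes that are made in bone marrow, circulate in blood and are held in large numbers in the capillaries of the lung. They form their granules in stages during maturation. Genes of granule proteins such as lactoferrin, cathelicidin and Ngp are transcribed mainly in marrow precursors, while mature cells keep transcripts of calprotectin and of surface receptors. Several of these genes are also used elsewhere: Ltf in glandular epithelium, and Acod1, Mmp9 and Csf3r in other myeloid cells.

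The promoters of 4 genes are shown because S100a8, S100a9 and Csf3r share their lowest library (WT4), while Ltf has its highest values in KO5 and WT6. Each window runs from 250 bases before to 50 bases after the RefSeq start of the gene (GRCm38.p6), and 9 of the 10 genes had such a window. Mmp9 is named only. Capitals mark matches to the C/EBP pattern TTNNGNAA, to the PU.1 pattern GAGGAA (both searched on both strands) and to TATAAA (gene strand). C/EBP factors and PU.1 are transcription factors of the granulocyte line.
S100a8, chr3:90668821-90669120, plus strand: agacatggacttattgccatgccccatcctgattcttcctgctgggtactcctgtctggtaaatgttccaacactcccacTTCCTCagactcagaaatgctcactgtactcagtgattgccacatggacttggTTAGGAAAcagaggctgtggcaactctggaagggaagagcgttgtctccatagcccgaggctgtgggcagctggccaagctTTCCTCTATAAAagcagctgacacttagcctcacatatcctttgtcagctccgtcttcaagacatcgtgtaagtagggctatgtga
S100a9, chr3:90695672-90695971, minus strand: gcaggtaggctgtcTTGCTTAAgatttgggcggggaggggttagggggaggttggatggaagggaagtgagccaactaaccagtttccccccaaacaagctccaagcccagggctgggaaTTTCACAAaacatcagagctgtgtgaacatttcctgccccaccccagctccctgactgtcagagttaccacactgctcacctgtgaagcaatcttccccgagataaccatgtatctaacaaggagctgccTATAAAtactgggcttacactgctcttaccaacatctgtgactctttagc
Csf3r, chr4:126024409-126024708, plus strand: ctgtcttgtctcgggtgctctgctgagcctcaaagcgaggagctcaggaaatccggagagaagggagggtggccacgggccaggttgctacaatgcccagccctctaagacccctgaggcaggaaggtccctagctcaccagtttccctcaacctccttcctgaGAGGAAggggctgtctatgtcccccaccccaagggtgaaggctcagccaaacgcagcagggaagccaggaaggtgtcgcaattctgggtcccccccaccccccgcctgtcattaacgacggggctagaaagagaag
Ltf, chr9:111019042-111019341, plus strand: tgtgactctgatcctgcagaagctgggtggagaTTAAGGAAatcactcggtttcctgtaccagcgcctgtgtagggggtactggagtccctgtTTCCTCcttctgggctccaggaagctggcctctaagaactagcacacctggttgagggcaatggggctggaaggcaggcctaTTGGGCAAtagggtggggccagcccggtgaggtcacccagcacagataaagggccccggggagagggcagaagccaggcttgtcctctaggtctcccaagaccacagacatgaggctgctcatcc

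The C/EBP pattern was found in 6 of the 9 windows, against 40.7% of all 32851 promoter windows of this length. The PU.1 pattern was found in 6 of the 9, against 28.3% of all windows. TATAAA was found in S100a8, S100a9 and Acod1, against 8.32% of all windows. Its first base was at position -30 in S100a8 and -28 in Acod1, but at position 0 in S100a9, which is the start itself. In S100a8 a PU.1 match (first base at position -36 from the start) runs directly into TATAAA (position -30). Ltf held 2 C/EBP matches and 1 PU.1 match, and Csf3r 1 PU.1 match. In Ngp 3 C/EBP matches were found, and in Camp none of the patterns. These matches are letters in a window and were not tested as binding sites.

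Library totals ranged from 13071262 to 16480006 counts. A count of 0 was taken to allow up to 3 counts, which is 0.18 to 0.222 CPM (counts scaled to the library's total by the TMM method of edgeR). The targeted gene followed the labels: Scgb3a2 had 1.28 CPM in KO3, 1.21 in KO4 and 2.67 in KO5, against 253, 266, 195 and 292 CPM in WT2, WT3, WT4 and WT6. KO5 and WT6 stood apart from the other 5 libraries regardless of genotype. Their scores on the leading principal component (37.5% of the variance) were 50 and 36.3, against -30.5 to -5.59 in the others.

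Some of the markers that define neutrophils were close to absent in both genotypes, while others were measurable. Of 15 mature neutrophil markers with a row, 11 passed the low-count filter. Ly6g, the surface antigen by which mouse neutrophils are usually identified, had 0 counts in each knockout library and 0, 0, 0 and 1 counts in the wild type libraries. How reads of Ly6g and of similar gene copies were assigned is not known, so its counts are uncertain. The myeloperoxidase gene Mpo had 1 count in knockout and 1 in wild type libraries in total. The cystatin gene Stfa2, named after its values were seen, had 0 throughout. The chemokine receptor Cxcr2 was measurable at 1.48, 2.48 and 1.95 CPM in KO3, KO4 and KO5, against 1.68, 2.10, 1.63 and 1.26 CPM in WT2, WT3, WT4 and WT6. The 10 genes are therefore called neutrophil genes by their known roles, and the cells that carried their transcripts were not identified. In bulk lung tissue, fewer cells of a type and less RNA per cell cannot be told apart.

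Of the 10 genes, 7 passed the low-count filter, and for none of these 7 was a difference between genotypes found. edgeR's quasi-likelihood test called 0 of them at an adjusted p of 0.05, and 0 had an unadjusted p under 0.05. Across all genes it called 7 of 19832, a share of 0.0353%, and 569 (2.87%) had an unadjusted p under 0.05. DESeq2 called 0 of the genes too and gave 0 of the 10 an unadjusted p under 0.05 (Camp and Acod1 received no adjusted p), beside calls for 60 of 21677 genes (0.277%). None of the 7 had knockout values that lay all above or all below the wild type values, which 3.72% of tested genes had. Log2 fold changes of knockout over wild type ran from -0.07 for Mmp9 to 0.82 for Ltf, with a median of 0.15 beside -0.0068 over all tested genes. Leaving out 1 library moved the median to 0.06 without KO4, 0.09 without WT3, 0.32 without WT2 and 0.36 without WT6, and leaving out KO5 and WT6 together moved it to 0.49. This is a test of 3 against 4 libraries, and the standard errors show how wide a difference it leaves unresolved.

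**Figure D1:**
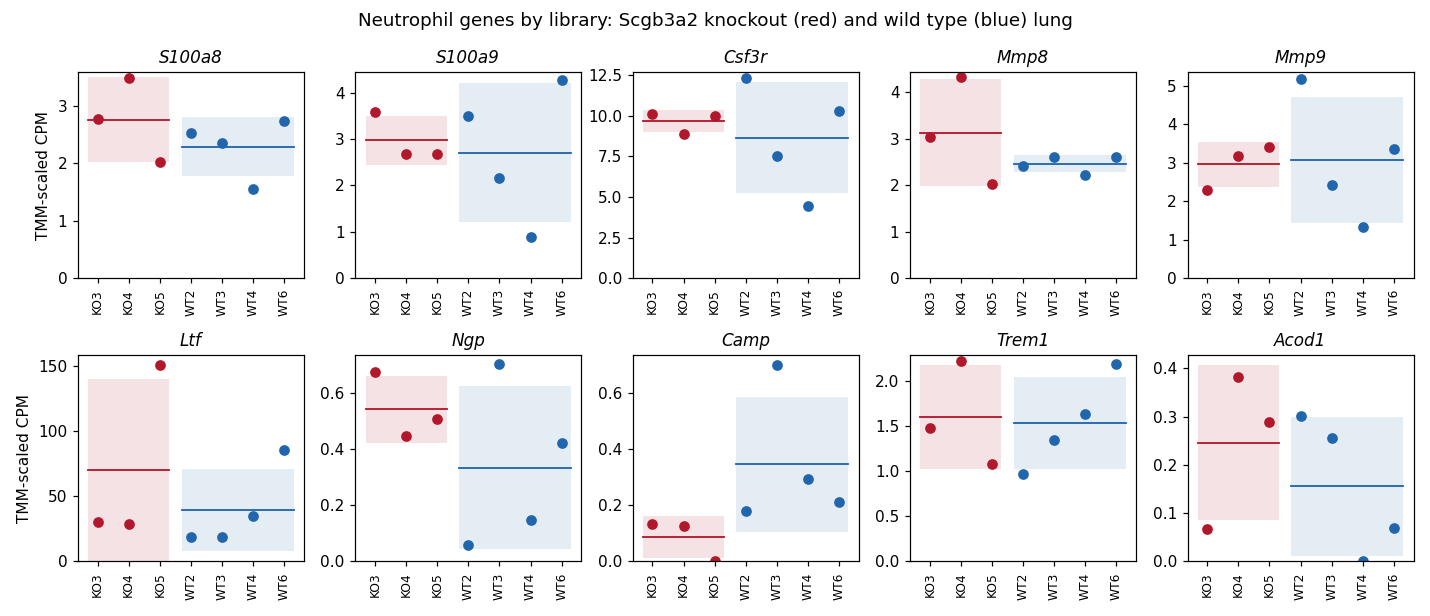
Level of each of the 10 genes in TMM-scaled CPM (y axis, starting at 0, a different scale in each panel) in the 3 knockout libraries (red) and the 4 wild type libraries (blue). Lines are group means and bands are 1 SD to each side, cut off at 0. Knockout and wild type points overlap in every panel except Camp, where KO5 has a count of 0, and Ltf is highest in KO5 and WT6.

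Mean levels per kilobase of exon (union of GENCODE M21 exons) put Ltf first, at 20.3 CPM per kb in knockout and 11.5 in wild type. Both Ltf means were raised by 1 library each, KO5 (151 CPM) and WT6 (85.6 CPM), and its rank in single libraries was not compared. S100a9 followed at 5.69 and 5.18, S100a8 at 3.98 and 3.30, and Csf3r at 2.68 and 2.40 CPM per kb in knockout and wild type. Mmp8 (1.29 and 1.01), Mmp9 (0.835 and 0.868) and Trem1 (0.533 and 0.509 CPM per kb) came next in both genotypes. Ngp, Camp and Acod1 lay lowest, at 0.443, 0.115 and 0.0937 CPM per kb in knockout and 0.272, 0.458 and 0.0596 in wild type. Apart from Ltf, none of these genes had a mean above 5.69 CPM per kb in either genotype. The difference in level between S100a9 and S100a8 was not tested.

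Calprotectin is the abundant calcium- and zinc-binding protein pair of neutrophil cytosol. S100a8 (chromosome 3, 90668978 to 90670035, plus strand, GRCm38) had 2.77, 3.49 and 2.02 CPM in KO3, KO4 and KO5, against 2.53, 2.36, 1.55 and 2.74 CPM in WT2, WT3, WT4 and WT6. KO3 and KO4 lay above every wild type library, but KO5 lay inside their range. The log2 fold change was 0.27 ± 0.28 (SE, edgeR, adjusted p = 1).

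S100a9 (chromosome 3, 90692632 to 90695721, minus strand) had 3.58, 2.67 and 2.67 CPM in KO3, KO4 and KO5, against 3.49, 2.17, 0.886 and 4.28 CPM in WT2, WT3, WT4 and WT6. All 3 knockout values lay inside the wild type range, which was set by WT4 at the low end and WT6 at the high end. Its means were 2.97 ± 0.522 CPM in knockout (SD, n = 3) and 2.71 ± 1.49 CPM in wild type (SD, n = 4), with a log2 fold change of 0.13 ± 0.41 (SE).

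Csf3r, the receptor of the growth factor G-CSF that drives neutrophil production, was the best measured receptor, with 60 to 205 counts per library. It lies on chromosome 4 (126024550 to 126044440, plus strand). It had 10.1, 8.89 and 10 CPM in KO3, KO4 and KO5, against 12.3, 7.52, 4.43 and 10.3 CPM in WT2, WT3, WT4 and WT6. The knockout libraries varied little among themselves (coefficient of variation 6.90%) and all lay inside the wild type range (coefficient of variation 39.7%). The log2 fold change was 0.15 ± 0.28 (SE, edgeR, adjusted p = 1), and WT4 alone set the low end.

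Trem1, a receptor of myeloid cells that amplifies responses to microbial products, lies on chromosome 17 (48232768 to 48246924, plus strand). It had 1.48, 2.22 and 1.08 CPM in KO3, KO4 and KO5, against 0.962, 1.34, 1.63 and 2.18 CPM in WT2, WT3, WT4 and WT6. The groups overlapped across nearly their whole ranges, with a log2 fold change of 0.08 ± 0.36 (SE).

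Of the granule proteases, Mmp8 is the neutrophil collagenase and Mmp9 the gelatinase that also comes from macrophages. Mmp8 (chromosome 9, 7558456 to 7568485, plus strand) had 3.04, 4.32 and 2.02 CPM in KO3, KO4 and KO5, against 2.41, 2.61, 2.22 and 2.60 CPM in WT2, WT3, WT4 and WT6. The wild type libraries were close together, and the knockout libraries lay to either side of them, KO3 and KO4 above and KO5 below. The log2 fold change was 0.35 ± 0.27 (SE, edgeR, adjusted p = 1), with the smallest unadjusted p of the 7 genes (0.219).

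Mmp9 (chromosome 2, 164940780 to 164955850, plus strand) had 2.29, 3.18 and 3.40 CPM in KO3, KO4 and KO5, against 5.17, 2.42, 1.33 and 3.37 CPM in WT2, WT3, WT4 and WT6. WT2 was highest and WT4 lowest of all 7 libraries, and the log2 fold change was -0.07 ± 0.38 (SE).

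Lactoferrin, the iron-binding product of Ltf (chromosome 9, 111019271 to 111042767, plus strand), gave the largest values. Ltf had 30.6, 28.5 and 151 CPM in KO3, KO4 and KO5, against 18.8, 18.7, 35.1 and 85.6 CPM in WT2, WT3, WT4 and WT6. KO5 and WT6 were high and the other 5 libraries of both genotypes lay together. The means were 70.0 ± 70.0 CPM in knockout (SD, n = 3) and 39.5 ± 31.6 CPM in wild type (SD, n = 4), with a log2 fold change of 0.82 ± 0.88 (SE, edgeR, adjusted p = 1). Without KO5 the log2 fold change was -0.41, and without both KO5 and WT6 it was 0.30.

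Ngp and Camp lie near Ltf on chromosome 9 (Ngp from 110419747 to 110423012, plus strand, and Camp from 109847379 to 109849617, minus strand) and encode related proteins of the cathelicidin family. Neither passed the low-count filter. Ngp had 10, 7 and 7 counts in KO3, KO4 and KO5, against 1, 11, 2 and 6 counts in WT2, WT3, WT4 and WT6. The ratio of summed, depth-scaled counts of knockout to wild type was 1.62, with an exact 95% interval of 0.860 to 3.10 that covers counting error only. Every knockout value lay inside the wild type range.

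Camp, the cathelicidin gene itself, had 2, 2 and 0 counts in KO3, KO4 and KO5, against 3, 11, 4 and 3 counts in WT2, WT3, WT4 and WT6. All 3 knockout values were lower, and the ratio of summed counts was 0.258 (counting interval 0.0643 to 0.764). The count of 0 in KO5 allows up to 3 counts, which is 0.217 CPM, against 0.18 CPM in WT2 and 0.211 CPM in WT6. The separation of the groups is therefore not established. The whole comparison rests on 4 counts in knockout and 21 in wild type, 11 of them in WT3. With no low-count filter edgeR gave a log2 fold change of -1.87 ± 0.87 (SE) with an unadjusted p of 0.0486 and an adjusted p of 1, and DESeq2 gave an unadjusted p of 0.0808.

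Acod1, whose enzyme makes the metabolite itaconate in activated myeloid cells, lies on chromosome 14 (103046977 to 103056573, plus strand). It had 1, 6 and 4 counts in KO3, KO4 and KO5, against 5, 4, 0 and 1 counts in WT2, WT3, WT4 and WT6. At 11 counts in knockout and 10 in wild type, a difference was not detectable at this depth (ratio 1.49, counting interval 0.574 to 3.91).

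WT4 had the lowest value of all 7 libraries in 4 of the 7 testable genes (S100a8, S100a9, Csf3r and Mmp9). KO4 had the highest value in 3 (S100a8, Mmp8 and Trem1). The median coefficient of variation of the 7 genes was 26.6% among knockout and 39.7% among wild type libraries, against 14.2% and 16.2% over all tested genes, most of which have higher counts. Estimated by edgeR, the variation between replicate libraries beyond counting error was above the trend for genes of like level in 4 of the 7, and in 6005 of all 19832 tested genes (30.3%). It was 75.6% for Ltf (trend 13.9%), 35.6% for S100a9 (24.3%), 32.9% for Mmp9 (23.8%) and 25.6% for Csf3r (18.9%).

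**Figure D2:**
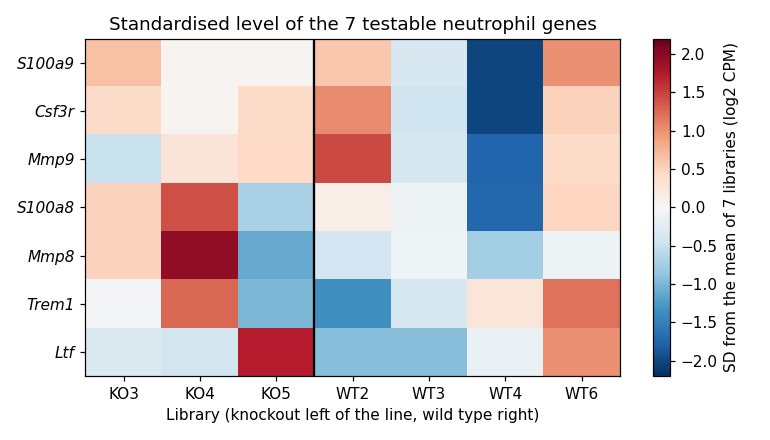
Level of the 7 testable genes in each library, as SD from the mean of all 7 libraries on the log2 CPM scale (red high, blue low), with knockout libraries left of the line and wild type libraries right of it. WT4 is lowest in S100a9, Csf3r, Mmp9 and S100a8, while Ltf is highest in KO5 and WT6.

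The pairs of genes with the highest Pearson correlation across the libraries are described here, and none of them passed after adjustment. Over the 7 libraries, S100a9 and Csf3r had a Pearson correlation of 0.947 on the log2 CPM scale (exact permutation p = 0.00575, adjusted p = 0.0625 over 21 pairs) and a Spearman correlation of 0.893 (exact p = 0.0123, adjusted p = 0.25). Without WT4 and WT6, the libraries farthest from the S100a9 median, Pearson's r was 0.852. For Csf3r and Mmp9 Pearson's r was 0.904 (exact p = 0.00595, adjusted p = 0.0625), Spearman's rho was 0.714 (exact p = 0.0881, adjusted p = 0.617), and r without WT4 and WT3 was 0.702. For S100a8 and Mmp8 r was 0.830 (exact p = 0.0236, adjusted p = 0.165), rho was 0.857 (exact p = 0.0238, adjusted p = 0.25) and r without WT4 and KO4 was 0.860. None of the 21 pairs passed after adjustment, and 16 had a positive r. The Pearson correlation of Ltf with the other 6 genes ran from -0.397 to 0.157.

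Ltf was highest in the libraries that stood apart, KO5 and WT6. The summed level of 7 mesothelial markers, a list chosen after the values were seen, was 66.4, 94.5 and 176 CPM in KO3, KO4 and KO5, against 73.4, 91.8, 78.3 and 168 CPM in WT2, WT3, WT4 and WT6. The high libraries of this list were those of Ltf. Scgb1a1, the main club cell product, took the smallest share of counts in the same libraries, 0.715% in KO5 and 0.876% in WT6, against 1.24% to 1.41% in the others. Their part in the Ltf values was not tested. Of the mesothelial list, 0 of 7 genes passed the test between genotypes (median log2 fold change -0.06).

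**Figure D3:**
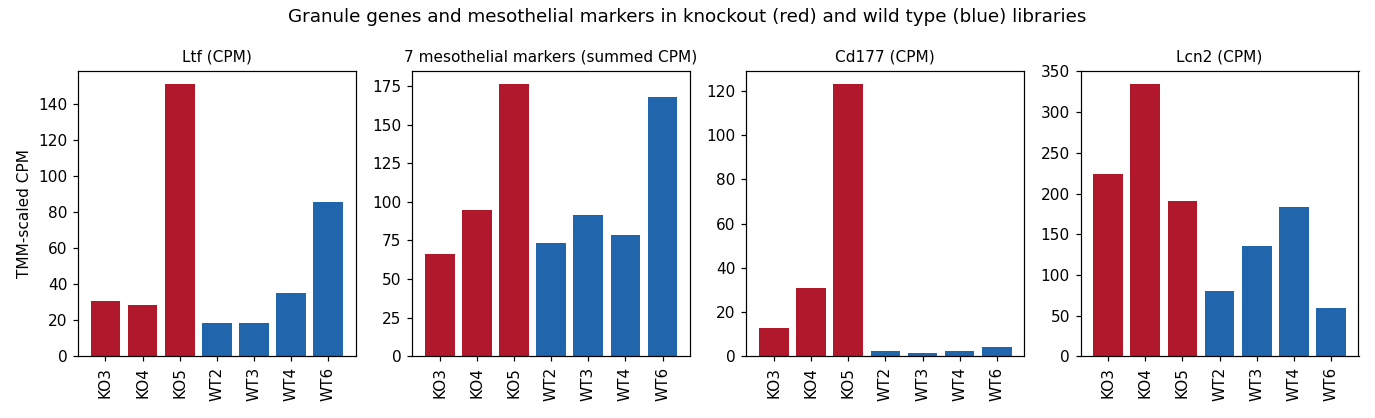
TMM-scaled CPM (y axes, starting at 0) of Ltf, the sum of 7 mesothelial markers, Cd177 and Lcn2 in the 3 knockout (red) and 4 wild type (blue) libraries, 1 bar per library. Ltf and the mesothelial sum are highest in KO5 and WT6, while Cd177 and Lcn2 lie higher in every knockout library than in any wild type library.

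Among 6 other genes of the neutrophil granules, 5 had higher means in knockout libraries, none of them passing edgeR's test. They too were listed by known roles, and the cells that carried their transcripts were not identified. Cd177, a surface glycoprotein stored in granules, had 12.8, 30.9 and 123 CPM in KO3, KO4 and KO5, against 2.53, 1.66, 2.59 and 4.35 CPM in WT2, WT3, WT4 and WT6. The groups did not overlap, and the log2 fold change of 4.32 ± 0.91 (SE) had an unadjusted p of 0.0037 but an adjusted p of 1 in edgeR and 8.79e-05 in DESeq2. Without KO5 it was 2.99 ± 0.41 (SE, edgeR, adjusted p = 0.138), and without both KO5 and WT6 it was 3.28 ± 0.45 (adjusted p = 0.328). Pglyrp1, a peptidoglycan-binding granule protein, had 5.46, 8.58 and 20.7 CPM in KO3, KO4 and KO5, against 3.07, 3.12, 4.51 and 6.11 CPM in WT2, WT3, WT4 and WT6. KO3 lay inside the wild type range, and the log2 fold change of 1.46 ± 0.44 (SE) had an adjusted p of 1 in edgeR and of 0.0495 in DESeq2. Without KO5 it was 0.75 ± 0.29 (SE).

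Lcn2, an iron-scavenging granule protein that airway epithelium also makes, had 224, 334 and 191 CPM in KO3, KO4 and KO5, against 80.6, 136, 184 and 60.0 CPM in WT2, WT3, WT4 and WT6. Its groups did not overlap, with a log2 fold change of 1.12 ± 0.40 (SE) and an adjusted p of 1 in both edgeR and DESeq2. Of the 6 measured genes of this granule list, 5 had positive log2 fold changes (also Mmp25 at 0.64 and Cybb at 0.23) and 1 a negative one (the haptoglobin gene Hp, -0.28), with a median of 0.88, 0 calls in edgeR and 2 in DESeq2 (Cd177 and Pglyrp1). Muc5ac, Dmbt1 and Reg3g, secreted products of airway epithelium from a list chosen after the values were seen, were also highest in KO5, the library highest in Cd177 and Pglyrp1. The mucin gene Muc5ac had 4.65, 17.7 and 79.0 CPM in KO3, KO4 and KO5, against 3.31, 2.80, 4.36 and 3.79 CPM in WT2, WT3, WT4 and WT6, with no overlap (log2 fold change 3.24 ± 0.97 SE, edgeR, adjusted p = 1). Dmbt1, a mucosal scavenger receptor protein, had 1.01, 1.40 and 9.47 CPM in KO3, KO4 and KO5, against 0 to 0.491 CPM in wild type libraries. The antibacterial lectin gene Reg3g had 17.4, 56.8 and 301 CPM in KO3, KO4 and KO5, against 12.2 to 44.2 CPM in wild type libraries, where KO3 overlapped. Their part in the granule gene values was not tested. Whether Cd177 or Lcn2 differed from S100a9 or Csf3r in its change was not tested.

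**Figure D4:**
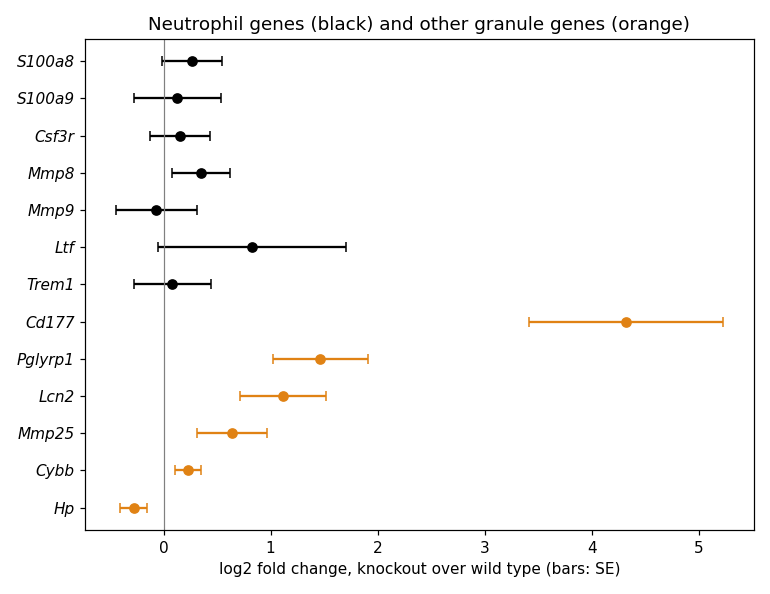
Log2 fold change of knockout over wild type with its SE (bars) for the 7 testable neutrophil genes (black) and 6 other granule genes (orange). The black points lie between -0.07 and 0.82, and the orange points run from -0.28 for Hp to 4.32 for Cd177.

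Mature neutrophil markers gave no call. Of 15 such genes with a row, 11 passed the filter, 8 with positive and 3 with negative log2 fold changes (median 0.11). Those with the smallest p were the histamine-forming enzyme Hdc (-0.35 ± 0.15, unadjusted p = 0.0343), the chromatin enzyme Padi4 (-0.71 ± 0.35) and the lectin receptor Clec4e (0.67 ± 0.48, each log2 fold change ± SE), all with an adjusted p of 1 in edgeR. The primary granule enzymes left 1 testable gene, the widely expressed protease Ctsc (log2 fold change -0.04 ± 0.12 SE), while Prtn3 had 4 counts in knockout and 6 in wild type libraries in total.

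The secreted factors that draw neutrophils or drive their production were mostly too low to test: 5 of 12 passed the filter and 0 were called (median log2 fold change -0.03). Csf3, which encodes G-CSF itself, had 0 to 0.145 CPM in knockout and 0 to 0.319 CPM in wild type libraries. Cxcl15, the lung-made chemokine lungkine, had 388, 452 and 412 CPM in KO3, KO4 and KO5, against 535, 517, 457 and 714 CPM in WT2, WT3, WT4 and WT6. All 3 knockout values were lower, with a log2 fold change of -0.41 ± 0.15 (SE, unadjusted p = 0.0177, edgeR, adjusted p = 1). Tnf (0.47 ± 0.29), Cxcl1 (0.57 ± 0.43) and Il1b (-0.27 ± 0.31), given as log2 fold change and SE, did not pass either.

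Genes whose products work with these proteins gave no call either. Of 8 partners, 0 passed the test and the median log2 fold change was -0.04. Among them were the prostaglandin synthase Ptgs2 (0.13 ± 0.14), the metalloproteinase inhibitors Timp2 (-0.10 ± 0.12) and Timp1 (-0.31 ± 0.45), and Tyrobp, the adaptor of Trem1 (0.12 ± 0.16 SE). Of 6 transcription factors of the granulocyte line, 4 passed the filter and 0 were called, with log2 fold changes of -0.03 for Cebpa, -0.17 for Cebpb, -0.01 for Cebpd and 0.13 for Spi1, and a median of -0.02. Gfi1 was under the filter in both genotypes, and Cebpe, a factor of late granulocyte precursors, had 1 count in knockout and 0 in wild type libraries.

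Markers of other cells that the tissue holds gave no call. Alveolar macrophage markers had a median log2 fold change of 0.11 over 8 genes, with Marco at 0.37, Krt79 at 0.23, Fabp1 at -0.31 and Chil3 at 0.15. Monocyte markers had a median of -0.11 over 8 genes, led by Treml4 (-1.11 ± 0.35 SE, unadjusted p = 0.00777, edgeR, adjusted p = 1), with Nr4a1 at -0.48, Ly6c2 at 0.26 and Ccr2 at 0.14. Erythroid markers, which track red cells left in the tissue, had a median of 0.08 over 7 genes and summed to 1900, 1650 and 1640 CPM in KO3, KO4 and KO5, against 1480, 1600, 1740 and 1500 CPM in WT2, WT3, WT4 and WT6. The haemoglobin gene Hba-a1 had 453, 441 and 414 CPM in KO3, KO4 and KO5, against 390, 327, 392 and 347 CPM in WT2, WT3, WT4 and WT6, with no overlap (log2 fold change 0.26 ± 0.11 SE, unadjusted p = 0.033, edgeR, adjusted p = 1). The haemoglobin gene Hba-a2 had 210, 216 and 180 CPM in KO3, KO4 and KO5, against 226, 218, 211 and 157 CPM in WT2, WT3, WT4 and WT6. Its groups overlapped (log2 fold change -0.008), as did those of Hbb-bs (0.12), Slc4a1 (-0.13) and Alas2 (0.08). Platelet markers had a median of -0.10 over 7 genes (Ppbp -0.36, Gp1bb -0.36, Itga2b -0.17 and Pf4 0.19), with the lowest sum in WT4 (19.7 CPM), while the knockout libraries had 25.7 to 33.0 CPM and WT2, WT3 and WT6 had 29.6 to 42.5 CPM. WT4 is the library that was also lowest in 4 of the 7 neutrophil genes. Its part in those values was not tested. Of the mast cell, basophil and eosinophil markers only Cpa3 was measurable (-1.01 ± 0.43 SE, unadjusted p = 0.0378).

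Over these 11 lists, 0 of 66 tested genes were called by edgeR, 8 had an unadjusted p under 0.05 (2.87% of all tested genes did), and DESeq2 called 2 (Cd177 and Pglyrp1). The airway secretory list is not among these 11 and was chosen after the values were seen, so its values are a description only. It had a median log2 fold change of 0.61 over 9 genes, 6 positive and 3 negative. Of these genes 0 were called by edgeR and 4 had an unadjusted p under 0.05. Bpifa1, an airway surface protein, ran the other way, with every knockout value (12.8 to 74.9 CPM) under every wild type value (82.1 to 594 CPM). The gene of smallest p in this list was the polymeric immunoglobulin receptor Pigr. It had 69.8, 91.0 and 146 CPM in KO3, KO4 and KO5, against 41.9, 39.5, 35.9 and 51.8 CPM in WT2, WT3, WT4 and WT6. The groups did not overlap, and the log2 fold change was 1.27 ± 0.23 (SE, edgeR, adjusted p = 0.406).

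The genes most like the mean standardised level of the 7 testable neutrophil genes over the 7 libraries, out of 14119 compared, were Micos13 (Pearson's r 0.979, Spearman's rho 1), Zadh2 (0.950, 0.929) and Car11 (0.947, 0.964). Tlr5 (0.937, 0.821), Psmd10 (0.923, 0.893) and Man2c1os (0.922, 0.857) followed. Without WT4 and KO4 their r ran from 0.715 to 0.948. They were picked as the highest of many, so these values are a description with no test.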

How the data were processed

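Total RNA of lung tissue was sequenced in 3 knockout and 4 wild type libraries. The deposited values are raw read counts per gene, made by the authors. STAR, DESeq2 and the build mm10 are named in the submitters' processing notes, without versions or roles. For the counting program, its annotation and its strand setting, details were not found in the labels or in the file. Reads of overlapping genes or similar copies, such as those of Ly6g in its gene family, are therefore uncertain. Genes were matched by symbol.

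From these counts, genes were compared with edgeR 4.0.16 in R 4.3.3 (its low-count filter, TMM, robust quasi-likelihood test, genotype as the only term, two-sided), with Benjamini-Hochberg adjustment over 19832 genes and a threshold of 0.05. DESeq2 1.42.0, other scalings and filters, libraries left out, a term for WT6 and KO5, and a replicate block were alternatives. Log2 CPM used a prior count of 2. SE is the fold change divided by the root of the F statistic. No libraries were duplicates (lowest chi-square per degree of freedom 4.30). The procedure was tested on simulated counts. Positions and exon lengths are from GENCODE M21.

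The genes and the 11 companion lists were chosen with earlier results of these data known. 2 further lists, the Ltf contrast, the choice of promoters, and Csf3, Stfa2, Il17a, Cxcl5, Reg3g, Bpifa1 and Hba-a2 as named genes followed the values. Ly6g and Cxcr2 are named as markers. All other named genes follow a rule: list members of smallest p (up to 4 a list), short lists in full, and the 6 most alike genes. A gene that this rule names among the mature markers is not reported here. Elane, Ctsg, Fcnb, Stfa3, Siglec5 and Epx were listed too, but had no row under these symbols in the count table and were not analysed here.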

Additional observations from a re-analysis of the deposited data

How the results depend on the processing

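No neutrophil gene was called under any alternative. The count over all genes, 7 in the reported fit, was 60 with DESeq2, 29 with a term for WT6 and KO5, 14 without that pair of libraries, and 3 to 41 with each library left out in turn (3 without WT2, WT3 or WT4, and 41 without KO3). Companion genes called, 0 in the reported fit, were 2 with DESeq2 (Cd177 and Pglyrp1) and 1 with the term (Pglyrp1). This count was added after seeing the data.

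The numbers 3 and 4 occur in both genotypes. The deviations of KO3 and WT3 correlated at 0.236 and those of KO4 and WT4 at 0.201, which with 2 pairs does not show that the numbers pair the libraries. A replicate block, which leaves WT2, WT6 and KO5 without a partner and 1 residual degree of freedom, gave 140 calls over all genes, 3 among companions (Cd177, Lcn2 and Pglyrp1), and a median of 0.59 in place of 0.15. Mmp9 then had 0.54, a reversed direction, and Csf3r the smallest adjusted p of the neutrophil genes (0.115).

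With each library left out in turn, 5 neutrophil genes changed direction: Csf3r (-0.059 to 0.38, negative without WT4), S100a9 (-0.15 to 0.43, negative without KO3 or WT4), Mmp9 (-0.31 to 0.31, positive without KO3 or WT2), Trem1 (-0.24 to 0.31, negative without KO4 or WT2) and Ltf (-0.41 to 1.54, negative without KO5). S100a8 (0.06 to 0.45) and Mmp8 (0.042 to 0.59) stayed positive, both lowest without KO4 (unadjusted p = 0.857 and 0.887, edgeR) and highest without KO5 (0.149 and 0.0434, adjusted p = 0.999). The median ran from 0.06 to 0.36. The cause was not tested. Depth limits Ngp, Camp and Acod1, at 0 to 11 counts per library.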

Other observations

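The interleukin gene Il17a, whose product induces granulopoietic and neutrophil-attracting factors, had 3, 2 and 8 counts in KO3, KO4 and KO5, against 0 in each of WT2, WT3, WT4 and WT6, where a count of 0 allows up to 3 counts per library. Cxcl5, a neutrophil chemokine, had 6, 6 and 17 counts in KO3, KO4 and KO5, against 4, 4, 2 and 3 counts in WT2, WT3, WT4 and WT6. Both failed the low-count filter and were chosen after their values were seen, so no test is given.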
